A study of Homo sapiens with 54 samples.

Results

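The genes described here are 10 genes of the WNT programme of the intestinal crypt: LGR5, ASCL2, AXIN2, RNF43, ZNRF3, NKD1, SP5, LEF1, TCF7 and MYC. They were chosen by symbol from the 59368 genes of the deposited expression tables, and all 10 were found. WNT signalling keeps stem cells at the base of the intestinal crypt: when the destruction complex is switched off, beta-catenin enters the nucleus, binds TCF/LEF factors and turns on target genes. Several of these targets act back on the pathway, and most colorectal cancers carry a mutation in APC or CTNNB1 that keeps the pathway on. DLD-1 and HT-29 are known as lines with truncated APC, and HCT-116 as a line with a stabilising CTNNB1 mutation.

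RNA was sequenced from these 3 human colorectal cancer lines, each as 5-fluorouracil (5-FU) sensitive cells and as cells that were made resistant by long growth in rising 5-FU. 5-FU is a fluorinated form of uracil whose metabolites inhibit thymidylate synthase and are built into nucleic acids. Sensitive and resistant cells of each line received 10 µM uracil (the control), 10 µM 5-FU, or 10 µM 5-FU followed by X-ray irradiation at the median lethal dose of the line, with 24 h of drug or uracil. This gave 18 conditions with 3 libraries each, 54 in all. Each resistant line was 1 selected population, so a difference between resistant and sensitive cells is a difference between 2 populations of a line. Resistant cells were also kept in medium with the drug, at a higher dose than the treatment, and sensitive cells in medium without it. Whether the drug was withdrawn before the treatments is not stated. The part of this standing exposure in the levels under uracil or in the drug response of resistant cells was not tested. The study describes the 3 RNA samples as biological triplicates, while the labels give no separate cultures, and the p-values measure the spread between these libraries.

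Totals ranged from 38957142 to 218518344 estimated counts per library, with a median of 51373543. Levels are given as TPM (kallisto's relative transcript abundance, corrected for length and depth and scaled to the same sum in each library), as mean ± SD of 3 libraries, and fold changes come from the estimated counts. In bulk RNA, fewer cells that express a gene and less RNA per cell cannot be told apart. Of 7 colon epithelium markers, 7 reached 1 TPM in DLD-1 and 6 in the other lines: CDX2, an intestinal transcription factor, stayed below 1 TPM in sensitive HT-29, and VIL1, a brush border protein, in HCT-116 and the labelled resistant HT-29 libraries. The 11 markers of leukocytes, fibroblasts and endothelium summed to at most 6.35 TPM per list, apart from the fibroblast list, which reached 31.3 TPM in HCT-116 and 21.3 TPM in libraries with the resistant HT-29 label. In sensitive HCT-116 under uracil COL1A1 stood at 21.3 TPM and COL1A2, which fibroblasts express with it, at 0.0300 TPM. The part of these cells in any result was not tested.

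The 9 libraries labelled resistant HT-29 went against their label. Of 12 genes that marked sensitive HT-29 (10 TPM or more under uracil, with no more than 0.1 TPM in either other line), 0 reached a mean of 1 TPM in them. Of 64 genes that marked sensitive HCT-116, 62 did. Resistant HCT-116 kept 62 of the 64, and resistant DLD-1 kept 19 of 20 DLD-1 markers. A comparison of resistant with sensitive cells that uses these 9 libraries therefore sets libraries with HCT-116 markers against HT-29, and each such value is named below as one of the libraries labelled resistant HT-29. Among the other libraries, replicate 1 of resistant DLD-1 under uracil stood furthest apart. In a chi-square comparison of gene counts, divided by its degrees of freedom, it was at 28.2 and 24.1 against the other replicates, while those were at 3.58 against each other. Some other libraries stood apart by less. Replicate 3 of sensitive HT-29 under uracil was at 13.3 and 17.7, while the others were at 3.49 against each other. For replicate 3 of resistant HCT-116 the values were 9.67 and 11.1 against 3.35 under uracil, and 10.3 and 13.9 against 4.15 under 5-FU with irradiation. In sensitive HCT-116 they were 13.8 and 9.88 against 6.41 for replicate 2 under uracil. Replicate 1 of sensitive HCT-116 under 5-FU with irradiation was at 12.6 and 8.49 against 5.78.

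Each gene lies at a single locus on GRCh38 (GENCODE 44). LGR5, an R-spondin receptor and crypt base stem cell marker, lies on chromosome 12 from 71439798 to 71586310 on the plus strand. ASCL2, a transcription factor of crypt stem cells, lies on chromosome 11 from 2268498 to 2270588 on the minus strand. AXIN2, a scaffold of the destruction complex and a feedback target, lies on chromosome 17 from 65528563 to 65561648, minus. RNF43 and ZNRF3 are related membrane ubiquitin ligases that remove Frizzled receptors. RNF43 lies on chromosome 17 from 58353676 to 58417595, minus, and ZNRF3 on chromosome 22 from 28883572 to 29057488, plus. NKD1, which binds Dishevelled and dampens the signal, lies on chromosome 16 from 50548396 to 50649249, plus. SP5, a zinc finger transcription factor, lies on chromosome 2 from 170715337 to 170718078, plus. LEF1 and TCF7 encode DNA-binding partners of beta-catenin. LEF1 lies on chromosome 4 from 108047545 to 108168956, minus, and TCF7 on chromosome 5 from 134114681 to 134151865, plus. MYC is a growth regulator and classic target of the pathway.

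TCF/LEF factors bind a short core, and the promoter windows of the members were searched for CTTTGAA and CTTTGAT on both strands, the matches on the other strand reading TTCAAAG and ATCAAAG. The windows run from 250 bases before to 50 bases after an annotated start (RefSeq, GRCh38.p14). Of 35116 windows of that length, 6.86% hold at least 1 of these words. There were 6 windows for 4 members: 1 for SP5, 1 for LEF1, 2 for TCF7 and 2 for RNF43. Entries were not found for LGR5, ASCL2, AXIN2, ZNRF3, NKD1 and MYC. The SP5 window (chr2:170715087-170715386, plus strand) holds 3 matches, which begin 148, 109 and 84 bases before the start. The windows of LEF1 (chr4:108166252-108166551, minus strand, at a start inside the gene) and RNF43 (chr17:58417485-58417784, minus strand) hold 0. They are printed because SP5 is the member with matches and because LEF1 differed between lines and RNF43 both between lines and between resistant and sensitive HCT-116. Capitals mark the matches.
SP5: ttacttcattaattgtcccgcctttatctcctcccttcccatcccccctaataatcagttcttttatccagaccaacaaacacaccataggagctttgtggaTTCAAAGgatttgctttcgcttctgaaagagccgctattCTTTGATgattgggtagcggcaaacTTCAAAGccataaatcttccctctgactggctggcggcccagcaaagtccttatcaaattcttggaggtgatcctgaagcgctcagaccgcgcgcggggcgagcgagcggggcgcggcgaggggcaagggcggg
LEF1: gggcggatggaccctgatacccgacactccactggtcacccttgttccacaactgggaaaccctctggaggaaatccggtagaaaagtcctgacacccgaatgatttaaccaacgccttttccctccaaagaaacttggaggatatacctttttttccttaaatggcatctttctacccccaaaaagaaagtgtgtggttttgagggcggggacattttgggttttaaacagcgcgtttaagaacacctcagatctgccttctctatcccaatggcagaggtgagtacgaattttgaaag
RNF43: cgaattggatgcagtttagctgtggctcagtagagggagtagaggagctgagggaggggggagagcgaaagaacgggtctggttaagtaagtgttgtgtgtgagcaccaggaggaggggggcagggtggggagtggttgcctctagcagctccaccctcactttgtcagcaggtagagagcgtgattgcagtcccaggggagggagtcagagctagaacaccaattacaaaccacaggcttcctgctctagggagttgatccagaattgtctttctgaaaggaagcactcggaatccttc
The other windows, both of TCF7 and the second of RNF43, also hold 0 matches. A match describes these letters only, and 0 matches says only that the words are not in this window.

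The 3 sensitive lines under uracil differed widely in these genes. DLD-1 expressed all 10 genes, HT-29 expressed 8 of them at or above 1 TPM, and in HCT-116 the stem cell markers LGR5 and ASCL2 as well as LEF1 were at or near 0. AXIN2 was the highest of the 10 in DLD-1, at 281, 294 and 292 TPM in the 3 libraries. It stood at 43.0, 41.5 and 41.8 TPM in HT-29 and at 9.70, 11 and 8.94 TPM in HCT-116. The 3 lines did not overlap, with DLD-1 above HT-29 above HCT-116.

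**Figure D1:**
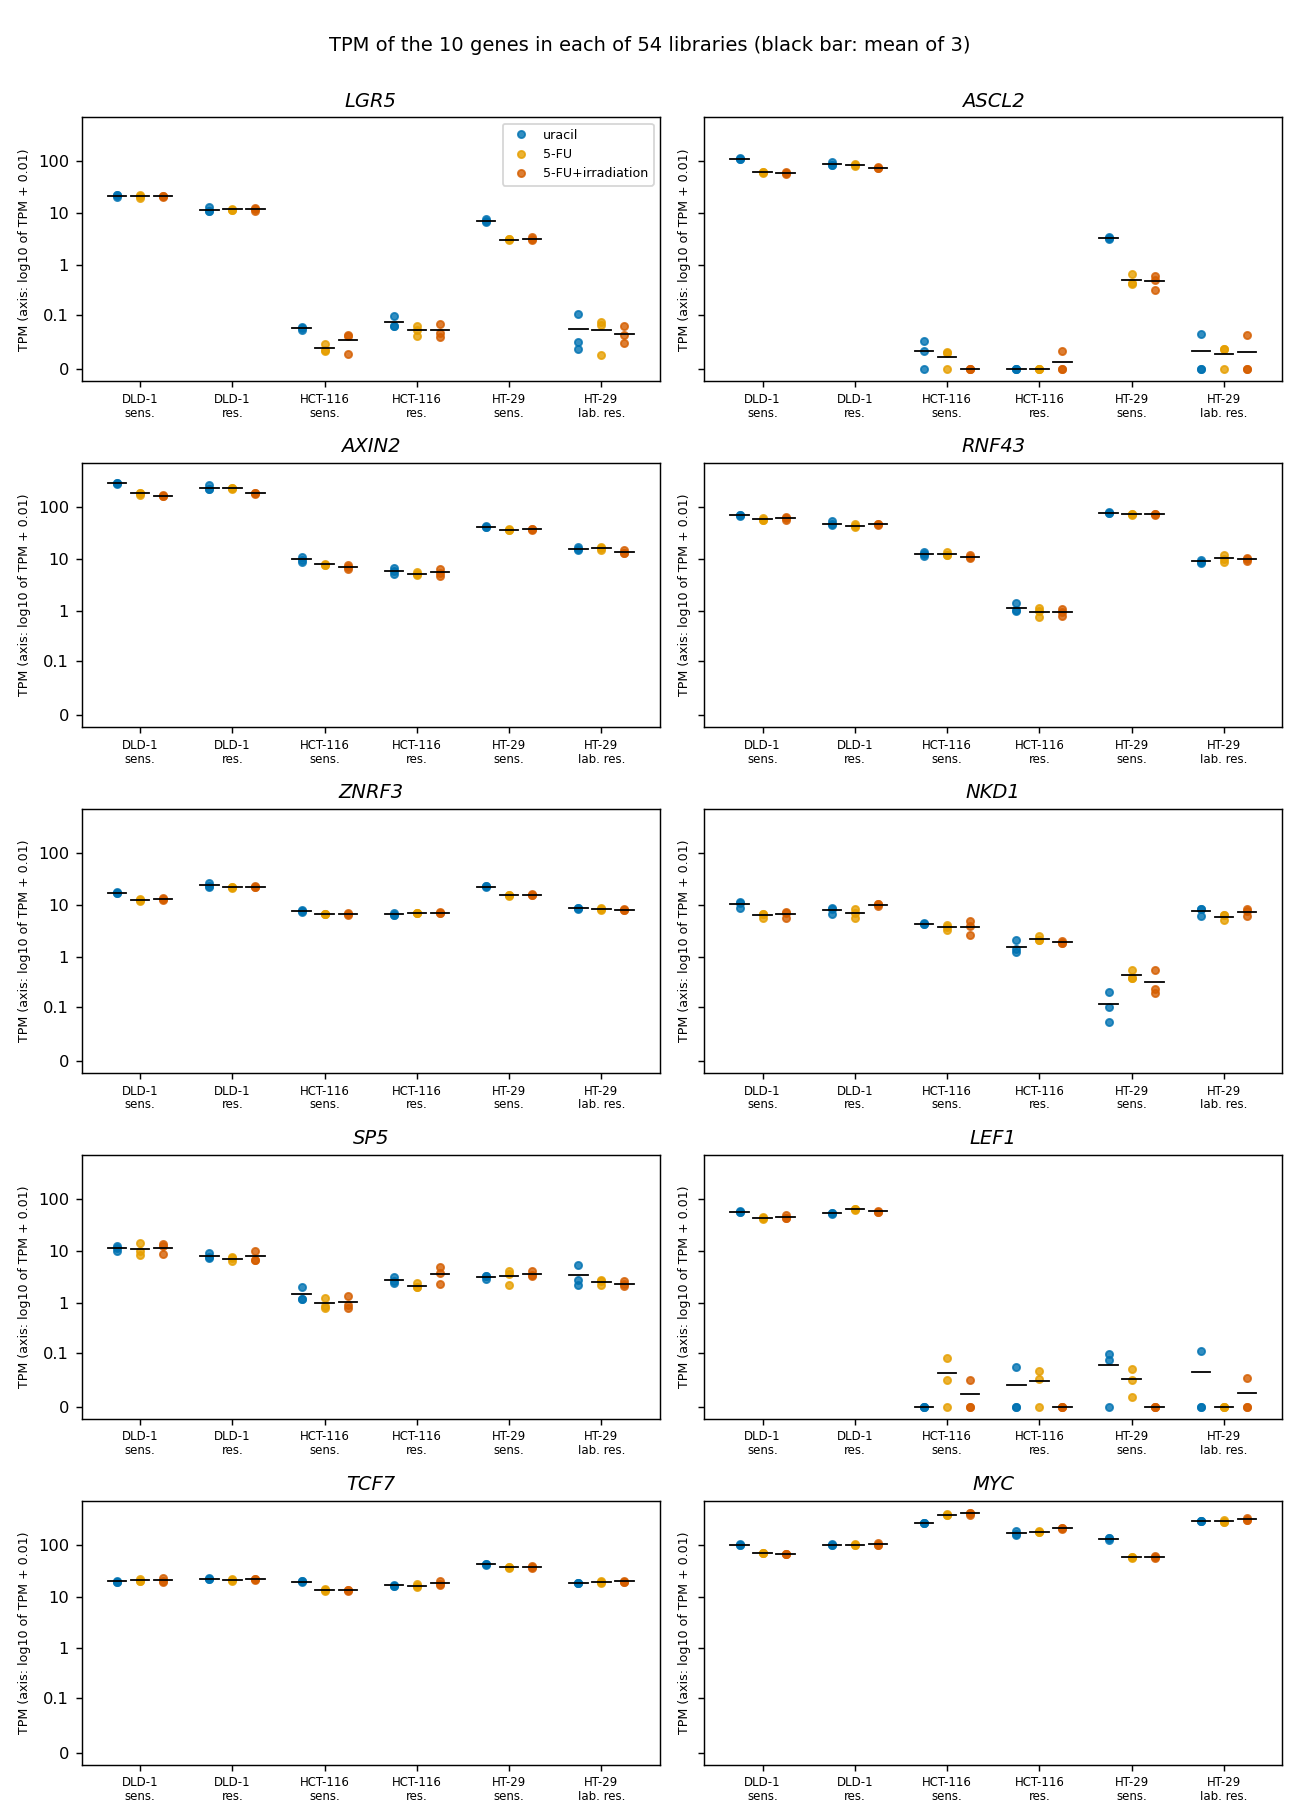
TPM of each gene in all 54 libraries, on an axis of log10(TPM + 0.01), with 1 panel per gene. Columns are sensitive (sens.) and resistant (res.) cells of each line, lab. res. marking the libraries labelled resistant HT-29, colours are treatments, points are libraries and black bars the mean of 3. LEF1 stands between 40.8 and 64.2 TPM in DLD-1 and near 0 elsewhere, and the libraries labelled resistant HT-29 stand near 0 for LGR5 and ASCL2 and inside the HCT-116 range for MYC.

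LGR5 stood at 22.2, 22.4 and 21.1 TPM in sensitive DLD-1 under uracil and at 7.07, 6.89 and 7.78 TPM in sensitive HT-29. In sensitive HCT-116 it stood at 0.0522, 0.0564 and 0.0463 TPM, which came from 5 to 7 counts per library. ASCL2 stood at 114, 112 and 113 TPM in DLD-1 and at 3.52, 3.30 and 3.16 TPM in HT-29. In HCT-116 it had 0, 1 and 2 counts, at or under the detection floor of 3 counts per library. LEF1 was at 56.0, 57.3 and 56.2 TPM in DLD-1, while HCT-116 had 0 counts in all 3 libraries, which allows up to 3 counts in each, and HT-29 had 2, 0 and 1 counts. The 3 genes therefore separate DLD-1 from both other lines without overlap, and of the 3, LEF1 was at the floor in both.

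These differences between lines were tested with edgeR's quasi-likelihood test over all 54 libraries. Calls needed a Benjamini-Hochberg adjusted p no higher than 0.01 together with an absolute log2 fold change no smaller than 1. Between sensitive HCT-116 and DLD-1, 8 of 10 genes were called, 7 lower and 1 higher in HCT-116, where 30.7% of all genes tested were called. LEF1 was at least 1365-fold lower in HCT-116, computed against the floor of 3 counts per library. ASCL2 had 3 counts over the 3 HCT-116 libraries and was 9192-fold lower, with an exact 95% interval of 3145 to 44580 that covers counting error only. AXIN2 was lower by 4.90 on the log2 scale (SE 0.0669, adjusted p = 1.84e-47, edgeR's quasi-likelihood test, Benjamini-Hochberg). MYC went the other way, at 260 ± 4.91 TPM in HCT-116 and 99.4 ± 1.13 TPM in DLD-1 (SD, n = 3 libraries).

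Between sensitive HT-29 and DLD-1, 7 of 10 genes were called against 30.9% of all genes: 6 were lower in HT-29 and TCF7 was higher. TCF7 was at 42.0 ± 1.70 TPM (SD, n = 3) in HT-29 and 19.5 ± 0.293 TPM in DLD-1. ASCL2 was lower in HT-29 with a log2 fold change of -4.97, and NKD1 stood at 0.114 ± 0.0786 TPM in HT-29 and 10.4 ± 1.28 TPM in DLD-1 (log2 fold change -5.82). Between sensitive HT-29 and HCT-116, 8 of 10 genes were called against 37.5% of all genes, 7 higher and 1 lower in HT-29. That 1 gene was NKD1, at 4.35 ± 0.0495 TPM in HCT-116. LEF1, counted among the 10, was at the floor in both HT-29 and HCT-116 and could not be compared. RNF43 was at 77.9 ± 2.85 TPM in HT-29, 70.8 ± 1.73 TPM in DLD-1 and 12.7 ± 1.21 TPM in HCT-116.

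The 18 conditions were then put in order of level. For LGR5 the 3 conditions of sensitive DLD-1 came first, at 21.1 to 21.9 TPM, and neighbours among them overlapped. The 3 of resistant DLD-1 followed at 11.7 to 12 TPM, then sensitive HT-29 under uracil at 7.24 TPM and with 5-FU, with or without irradiation, at 3.13 and 3.28 TPM. The other 9 conditions were at or below 0.0714 TPM. For MYC the order was different, with the 9 HCT-116 and labelled resistant HT-29 conditions on top, from 165 to 397 TPM. Sensitive HT-29 under 5-FU was last, at 57.2 ± 0.887 TPM. SP5 was the least separated gene: 16 of its 17 neighbouring pairs of conditions overlapped in their libraries, against 7 of 17 for MYC.

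In sensitive cells several of these genes were lower with 5-FU, by different amounts in each line. In DLD-1 the gene that fell past both thresholds was NKD1. Its TMM-scaled CPM values (estimated counts scaled to a common library size) were 37.0, 37.1 and 39.3 under uracil and 16.5, 15.5 and 17.5 under 5-FU. The groups did not overlap, and the log2 fold change was -1.20 (SE 0.0636, adjusted p = 6.18e-12, edgeR's quasi-likelihood test, Benjamini-Hochberg). This was 1 of 10 genes, where 4.02% of all genes tested were called. On the TPM scale NKD1 went from 10.4 ± 1.28 to 6.28 ± 0.645 TPM, and limma on log2(TPM + 1) gave a difference of -0.64, which is under the fold threshold. A share of 73.9% of the NKD1 TPM in sensitive DLD-1 under uracil came from transcripts with no annotated coding part, and 6.78% of its estimated counts.

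Under the adjusted p alone, 8 of the 10 genes were lower in sensitive DLD-1 with 5-FU and 0 were higher, where 20.3% of all genes were lower under that rule. The median log2 fold change of the 10 was -0.55, and that of all genes tested 0.01. ASCL2 stood at 114, 112 and 113 TPM under uracil and at 62.6, 58.8 and 63.3 TPM under 5-FU. Its log2 fold change of -0.98 (SE 0.0460) lay just under the fold threshold and passed it without replicate 3 of the 5-FU group, at -1.01. AXIN2 stood at 281, 294 and 292 TPM under uracil and at 191, 173 and 188 TPM under 5-FU, a log2 fold change of -0.76. MYC stood at 99.4 ± 1.13 and 69.5 ± 0.189 TPM, and LEF1 at 56.5 ± 0.681 and 42.7 ± 1.73 TPM, and in none of these genes did the libraries overlap. LGR5 had a log2 fold change of -0.15 (adjusted p = 0.0626) and TCF7 one of -0.09 (adjusted p = 0.113), both from edgeR's quasi-likelihood test. SP5 was among the 8 by its counts, at 15.4 ± 0.681 CPM under uracil and 13.2 ± 0.382 CPM under 5-FU. Its TPM was 11.3 ± 1.21 under uracil and 10.7 ± 3.08 under 5-FU, with overlapping libraries.

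In sensitive HT-29 3 of the 9 genes tested fell past both thresholds, where 12.2% of all genes were called: LGR5, ASCL2 and MYC. ASCL2 stood at 3.52, 3.30 and 3.16 TPM under uracil and at 0.682, 0.453 and 0.419 TPM under 5-FU, a log2 fold change of -2.89 (SE 0.241, adjusted p = 9.12e-11, edgeR's quasi-likelihood test). LGR5 stood at 7.07, 6.89 and 7.78 TPM under uracil and at 3.00, 3.14 and 3.23 TPM under 5-FU, with a log2 fold change of -1.31 (SE 0.116). MYC stood at 133, 132 and 122 TPM under uracil and at 56.3, 58.1 and 57.3 TPM under 5-FU, with a log2 fold change of -1.40 (SE 0.0527). In each of the 3 genes every 5-FU library lay below every uracil library. NKD1 was low, at 20 to 45 counts per library under uracil and 65 to 85 under 5-FU, and higher under the adjusted p alone, with a log2 fold change of 0.54. Under the adjusted p alone 8 of 9 genes were lower, where 24.9% of all genes were. SP5 was among the 8 by its counts, at 5.97 ± 0.340 CPM under uracil and 3.93 ± 0.297 CPM under 5-FU. Its TPM did not fall, at 3.12 ± 0.198 under uracil and 3.30 ± 0.957 under 5-FU, with overlapping libraries. LEF1 was not tested, being at the floor. By limma on log2(TPM + 1) 2 genes were called, with LGR5 at a log2 fold change of -0.997. With only the uracil and 5-FU libraries of sensitive HT-29 in the fit, and so without the libraries labelled resistant, 3 genes were again called.

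**Figure D2:**
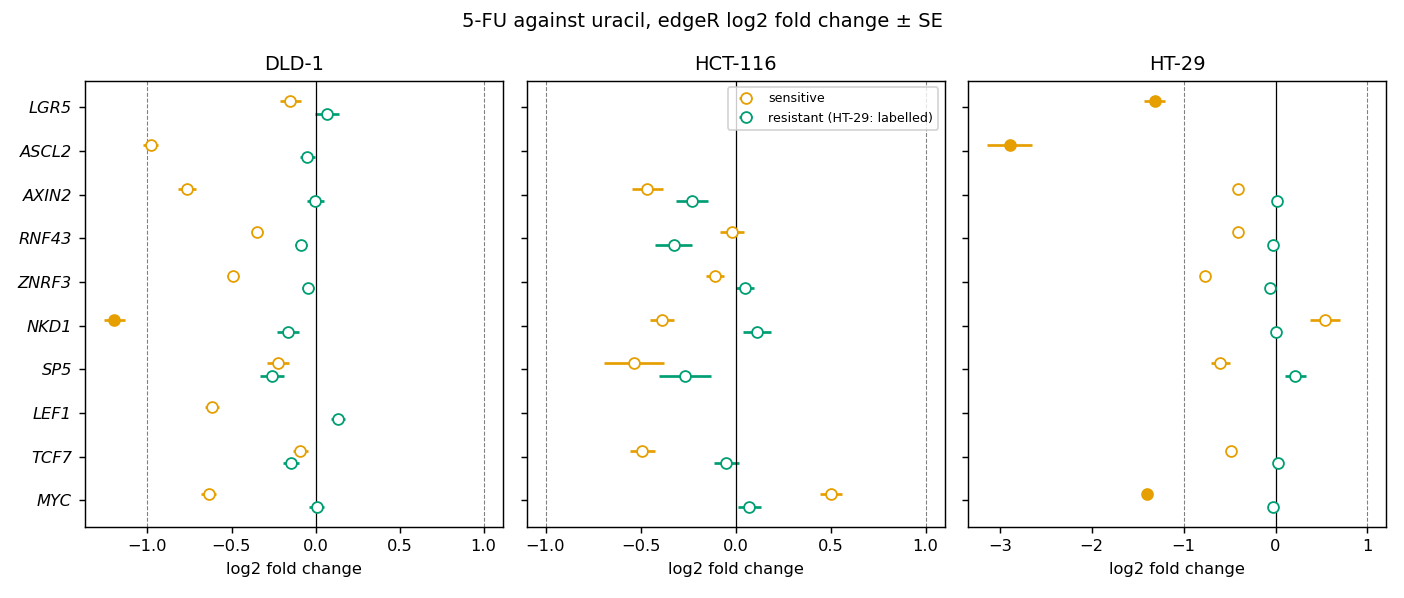
Log2 fold change of 5-FU against uracil with its SE from edgeR, in sensitive cells (orange) and, in green, resistant DLD-1, resistant HCT-116 and the libraries labelled resistant HT-29, with 1 panel and 1 axis range per line. Filled points passed both thresholds and dashed lines mark log2 fold changes of -1 and 1, and genes not tested or near the floor are not drawn. The filled points are all in sensitive cells: NKD1 in DLD-1, and LGR5, ASCL2 and MYC in HT-29.

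In sensitive HCT-116 0 of the 7 genes tested were called by edgeR, where 8.14% of all genes were called. By DESeq2 the count was 0 and by limma on TPM 0, while 6 of 7 had an unadjusted p under 0.05. Here and below, counts at an unadjusted p have no share of all genes at that rule beside them. They describe the members only. LGR5, ASCL2 and LEF1 were not tested because of their low counts. MYC stood at 264, 255 and 261 TPM under uracil and at 381, 371 and 368 TPM under 5-FU, higher in every 5-FU library, and passed the adjusted p alone (log2 fold change 0.50, SE 0.0585, adjusted p = 1.98e-07, edgeR's quasi-likelihood test). AXIN2, NKD1, SP5 and TCF7, 4 of the 7, were lower under the adjusted p alone, where 24.4% of all genes were, with log2 fold changes from -0.53 to -0.39. TCF7 stood at 19.5, 18.9 and 19.7 TPM under uracil and at 13.8, 13 and 13.6 TPM under 5-FU, without overlap. SP5 stood at 2.07 ± 0.0585 CPM under uracil and 1.42 ± 0.118 CPM under 5-FU. Its TPM spread more, at 1.46 ± 0.502 under uracil and 0.968 ± 0.239 under 5-FU.

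The response of MYC to 5-FU differed between the lines, and the differences were tested as interaction terms. The response in HCT-116 exceeded that in DLD-1 by 1.14 on the log2 scale (SE 0.0779, adjusted p = 2.67e-17) and that in HT-29 by more, since the HT-29 response minus the HCT-116 response was -1.84 (SE 0.0783, adjusted p = 1.77e-25, edgeR's quasi-likelihood test). MYC was the 1 gene called in each of these, against 5.31% and 12.1% of all genes, and it was 1 of 7 that could be compared, since LGR5, ASCL2 and LEF1 had 0 to 7 counts per library in sensitive HCT-116. Between HT-29 and DLD-1, 3 genes were called, against 6.87% of all genes: LGR5 and ASCL2 had lower responses in HT-29, with differences of -1.10 and -1.84, and NKD1 a higher one, with a difference of 1.80. LEF1 was at the floor in HT-29. By limma on log2(TPM + 1) the differences of LGR5 and ASCL2 were -0.95 and -0.65, under the fold threshold, and 1 gene was called. Without replicate 1 or replicate 2 of every group NKD1 joined MYC between HT-29 and HCT-116, at 1.07 and 1.09. The 3 pairs of lines share libraries, so these differences are not independent of one another.

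**Figure D3:**
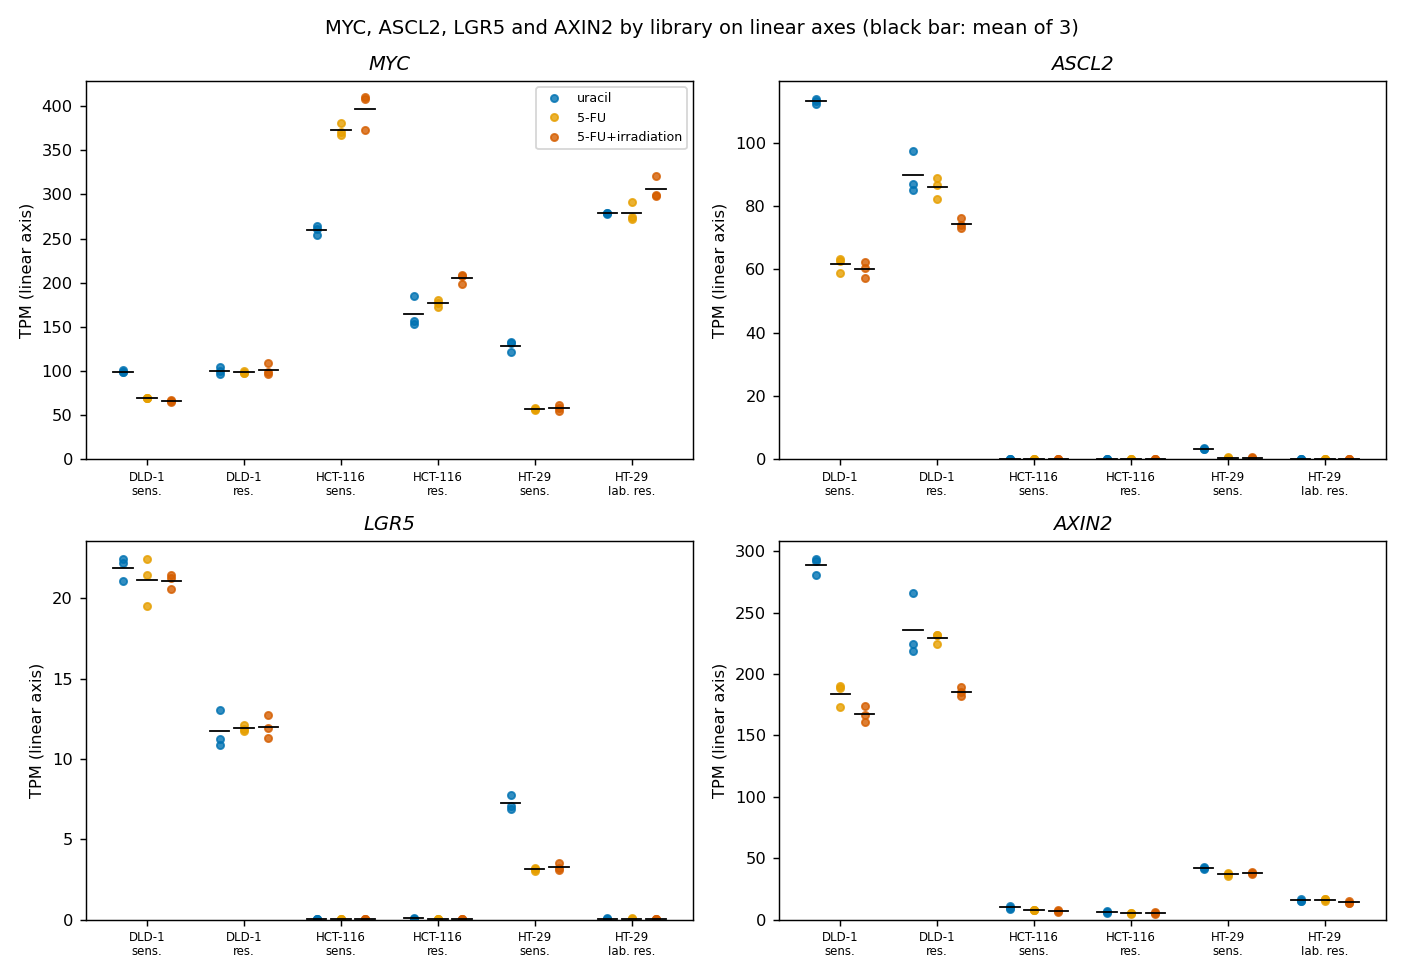
TPM of MYC, ASCL2, LGR5 and AXIN2 by library on linear axes that start at 0, with colours for treatments and black bars for the mean of 3. MYC is higher with 5-FU in sensitive HCT-116 and lower in sensitive DLD-1 and HT-29, and ASCL2 is lower with 5-FU in both sensitive lines that express it.

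In sensitive cells no member was called between 5-FU with irradiation and 5-FU alone. Against uracil, 5-FU with irradiation lowered ASCL2 (log2 fold change -1.06, SE 0.0463) and NKD1 (-1.14, SE 0.0641) in DLD-1, 2 of 10 genes against 4.61% of all genes tested. ASCL2 lost the call with scaling by library size alone (-0.94) and with limma on log2(TPM + 1) (-0.90), and NKD1 with limma (-0.58), which left 1 call and 0 calls. In HT-29 LGR5, ASCL2 and MYC again fell, with log2 fold changes of -1.22, -3.02 and -1.39, 3 of 9 genes against 12.2% of all genes. By limma LGR5 was under the threshold, at -0.95. For HCT-116 0 of 7 were called by edgeR, DESeq2 and limma, where 8.38% of all genes were called. An unadjusted p under 0.05 was reached by 5 of the 7. These comparisons share the uracil libraries with those of 5-FU alone. Against 5-FU alone, 0 members were called in each of the lines by edgeR, DESeq2 or limma on TPM. At an unadjusted p under 0.05 there was 1 of 10 genes for DLD-1, 0 of 7 for HCT-116 and 0 of 9 for HT-29. The call rate over all genes was 0, 0 and 0.00842%. Within sensitive DLD-1 the AXIN2 difference was the largest of the 10, at a log2 fold change of -0.18 (adjusted p = 0.167, edgeR's quasi-likelihood test).

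For 5-FU against uracil in resistant cells, the count of called genes was 0 of 10 for DLD-1 and 0 of 7 for HCT-116 by edgeR, DESeq2 and limma. It was also 0 for the libraries labelled resistant HT-29, where 7 genes could be compared: LGR5 (1 to 9 counts per library), ASCL2 (0 to 3) and LEF1 (0 to 1) were too low there for a response to be called at this depth. An unadjusted p under 0.05 was reached by 5, 2 and 0 genes. The call rates over all genes were 0.0138%, 0 and 0.00421%. ASCL2 stood at 97.4, 85.2 and 86.9 TPM under uracil and at 86.7, 82.3 and 89.0 TPM under 5-FU in resistant DLD-1, with overlapping groups. MYC stood at 100 ± 3.86 and 98.6 ± 1.63 TPM there, at 165 ± 17.5 and 177 ± 4.19 TPM in resistant HCT-116 and at 279 ± 0.750 and 279 ± 10.1 TPM in the libraries labelled resistant HT-29. Added irradiation called 0 members in the resistant cells of the 3 lines by the same 3 tools, LGR5, ASCL2 and LEF1 again being too low in the labelled libraries, with 4 (DLD-1), 1 (HCT-116) and 1 (labelled HT-29) at an unadjusted p under 0.05, and call rates of 0.142%, 0.0261% and 0.434% over all genes. AXIN2 in resistant DLD-1 was lower with irradiation at the adjusted p alone, at 231, 224 and 232 TPM with 5-FU and 189, 182 and 185 TPM with irradiation added (log2 fold change -0.33, SE 0.0518), and ASCL2 at 86.0 ± 3.42 and 74.4 ± 1.62 TPM (log2 fold change -0.22).

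The 5-FU responses of resistant and sensitive cells were compared directly. In DLD-1 the NKD1 response was higher in resistant cells by 1.03 (SE 0.0901, adjusted p = 2.85e-08, edgeR's quasi-likelihood test), 1 of 10 genes against 3.12% of all genes tested. Its CPM values were 36.1, 29.9 and 33.3 under uracil and 28.8, 30.7 and 29.2 under 5-FU in resistant DLD-1, with overlapping groups. The NKD1 difference lay under the fold threshold at 0.998 without sensitive uracil replicate 3, at 0.994 without sensitive 5-FU replicate 2 and at 0.968 without resistant uracil replicate 2. Without resistant uracil replicate 1, which stood apart, it was 1.10. It was 0.93 with scaling by library size alone and 0.47 with limma on TPM (adjusted p = 0.0704, limma). At the adjusted p alone 7 of 10 responses were higher in resistant DLD-1, where 13.7% of all genes were, among them ASCL2 with a difference of 0.93, AXIN2 with 0.76 and MYC with 0.64. In HCT-116 0 of 7 responses were called by edgeR, DESeq2 and limma, where 6.11% of all genes were called. An unadjusted p under 0.05 was reached by 5 of the 7. MYC had a smaller response in resistant HCT-116, by -0.43 (SE 0.0830) at the adjusted p alone. In HT-29, against the libraries labelled resistant, the MYC response was higher by 1.37, against 9.28% of all genes, and it was the 1 gene called. ASCL2 and LEF1 were at the floor in the labelled libraries. LGR5, with 1 to 9 counts in them, joined MYC at 3.06 without labelled resistant uracil replicate 1 and at 2.12 without labelled resistant 5-FU replicate 2.

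Under uracil, resistant HCT-116 had less RNF43 and NKD1 than sensitive HCT-116, while no member passed both thresholds in DLD-1. In DLD-1 0 of 10 genes were called by edgeR, DESeq2 and limma, where 5.70% of all genes were called. An unadjusted p under 0.05 was reached by 8 of the 10. At the adjusted p alone 5 were lower and 2 higher, where 11.5% of all genes were lower and 13.1% higher. LGR5 was nearest the threshold: it stood at 22.2, 22.4 and 21.1 TPM in sensitive and at 10.9, 13 and 11.2 TPM in resistant cells, without overlap, with a log2 fold change of -0.92 (SE 0.0667, adjusted p = 6.09e-10, edgeR's quasi-likelihood test). Without resistant uracil replicate 2 it passed the fold threshold, at -1.004, and without replicate 1, which stood apart, it was at -0.83. RNF43 was at 72.0, 71.6 and 68.8 TPM and 53.2, 45.1 and 46.6 TPM, a log2 fold change of -0.57. Its relative ZNRF3 went the other way, at 17.3 ± 0.203 TPM in sensitive and 23.8 ± 2.07 TPM in resistant cells, with a log2 fold change of 0.36. LEF1, at 56.5 ± 0.681 and 52.9 ± 1.96 TPM, and MYC, at 99.4 ± 1.13 and 100 ± 3.86 TPM, had adjusted p of 0.489 and 0.785 in edgeR's quasi-likelihood test.

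In HCT-116 RNF43 fell from 12.7, 11.4 and 13.9 TPM in sensitive cells to 1.06, 0.997 and 1.43 TPM in resistant cells (log2 fold change -3.17, SE 0.0791, adjusted p = 6.26e-18, edgeR's quasi-likelihood test). The groups did not overlap, and the 6 libraries of resistant HCT-116 with 5-FU, with or without irradiation, lay between 0.759 and 1.12 TPM. NKD1 fell from 28.8, 27.3 and 27.1 to 10.0, 9.77 and 10.0 CPM (log2 fold change -1.48, SE 0.0684). These were 2 of 7 genes, where 11.0% of all genes were called. SP5 had a log2 fold change of 0.98 (SE 0.144), just under the threshold. Over 13 alternatives it ranged from 0.61 to 1.11 and passed in 7 of them, and its highest adjusted p among them lay above 0.01. MYC was lower at the adjusted p alone, at 264, 255 and 261 TPM in sensitive and 153, 157 and 185 TPM in resistant cells (log2 fold change -0.70), as was AXIN2, at 9.87 ± 1.03 and 6.01 ± 0.815 TPM. ZNRF3 stood at 7.60 ± 0.225 and 6.65 ± 0.325 TPM.

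**Figure D4:**
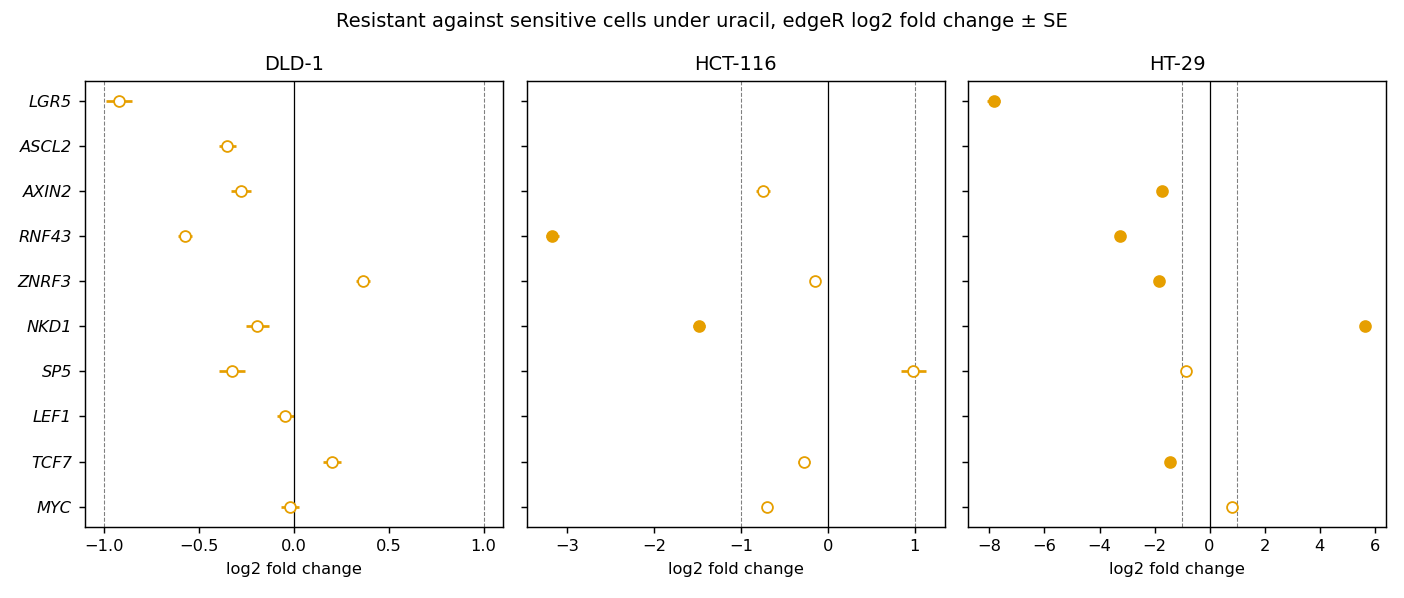
Log2 fold change of resistant against sensitive cells under uracil with its SE from edgeR, with 1 panel and 1 axis range per line. Filled points passed both thresholds and dashed lines mark -1 and 1. Genes not tested or near the floor are not drawn, among them ASCL2 in the HT-29 panel, which was called lower. RNF43 at -3.17 and NKD1 at -1.48 stand out for HCT-116, and the HT-29 panel uses the labelled resistant libraries, which carry HCT-116 markers.

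The libraries labelled resistant HT-29 differed from sensitive HT-29 in 7 of 9 genes tested, where 39.4% of all genes were called. LGR5, ASCL2, AXIN2, RNF43, ZNRF3 and TCF7 were lower and NKD1 higher. MYC was also higher, at 129 ± 6.04 TPM in sensitive HT-29 and 279 ± 0.750 TPM in the labelled libraries under uracil. Its log2 fold change of 0.80 was under the threshold, which it passed in 2 of 13 alternatives, at up to 1.11. ASCL2 had 3 counts over the 3 uracil libraries and was 280-fold lower than in sensitive HT-29, with an exact 95% interval of 95.4 to 1360 for counting error. NKD1 stood at 0.200, 0.0453 and 0.0969 TPM in sensitive HT-29 and at 8.46, 8.35 and 6.12 TPM in the labelled libraries. Set against sensitive HCT-116, the same labelled libraries differed in 0 of the 7 genes that could be compared by edgeR, DESeq2 and limma, where 6.87% of all genes were called. LGR5, ASCL2 and LEF1, at or near the floor in both groups, could not be compared. Of the 7, 5 had an unadjusted p under 0.05 and passed the adjusted p alone: AXIN2, NKD1 and SP5 were higher in the labelled libraries, by 0.52, 0.38 and 0.72 on the log2 scale, and RNF43 and TCF7 lower, at -0.41 and -0.20. No share of all genes under these rules is set beside this count, so it describes the members only. MYC was at 279 ± 0.750 TPM in them and 260 ± 4.91 TPM in sensitive HCT-116. Set against resistant HCT-116, 3 of the same 7 genes were higher, against 3.36% of all genes: RNF43 by 2.75, NKD1 by 1.85 and AXIN2 by 1.25 on the log2 scale.

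The transcripts of each gene were estimated by kallisto, which divides reads they share, so shares of transcripts are estimates. TCF7 has annotated transcripts that start translation before its second RefSeq start and shorter ones that start after it, which lack the N-terminal part that binds beta-catenin. The long class held 87.8% ± 1.85 of TCF7 TPM in sensitive DLD-1, 91.6% ± 3.12 in sensitive HCT-116 and 91.5% ± 2.01 in sensitive HT-29 under uracil (SD, n = 3 libraries). The values overlapped between lines, and in the resistant groups under uracil they were 88.1% to 90.8%. LEF1, expressed in DLD-1, had 52.5% ± 0.556 of its TPM in sensitive cells under uracil from transcripts with the reference coding start and 7.16% ± 0.385 from those with a later start. ZNRF3 varied more: its full-length coding start held 94.6% ± 1.12 of TPM in sensitive HT-29 but 74.0% ± 2.97 in sensitive DLD-1 and 66.6% ± 4.14 in resistant DLD-1, and HT-29 did not overlap DLD-1.

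The patterns of the genes over the 18 condition means of log2(TPM + 1) were compared by Pearson correlation, as a description, since the points share lines and libraries. ASCL2 and LEF1 were most alike (r = 0.986), followed by LGR5 and AXIN2 (r = 0.961) and ASCL2 and AXIN2 (r = 0.952). MYC had negative r with 8 of the 9 others, from -0.81 with LGR5 to -0.57 with LEF1, and 0.18 with NKD1. NKD1 and TCF7 had r = -0.58. Among 16728 genes that reached 1 TPM and varied by at least 1 on this scale, the genes most like LGR5 were TDGF1 (r = 0.993) and HOTTIP (r = 0.992), and those most like ASCL2 were SORBS2, FOXA2 and SLC6A20, each at r = 0.990. MYC was most like CEBPA-DT and BTG2, both at r = 0.970.

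The other genes of the pathway were read from 96 genes in 8 lists. For 5-FU against uracil in sensitive cells, DLD-1 had 2 of 72 tested called, both lower, where 4.02% of all genes were called. HCT-116 had 3 of 76 higher and 9 lower, where 8.14% of all genes were called, and HT-29 had 8 of 77 higher and 5 lower, where 12.2% were. In DLD-1 the WNT inhibitors NOTUM and APCDD1 fell: NOTUM, an enzyme that removes a lipid from WNT ligands, stood at 2.02 ± 0.0700 TPM under uracil and 0.521 ± 0.157 TPM under 5-FU. NOTUM was also lower with 5-FU in sensitive HCT-116, at 12.6 ± 0.659 TPM under uracil and 6.35 ± 0.192 TPM under 5-FU. In sensitive HT-29 it was low in both, at 0.227 ± 0.112 and 0.303 ± 0.0755 TPM. In HCT-116 CCND1, the cyclin D1 gene, rose from 212 to 472 TPM (log2 fold change 1.14, SE 0.0501), and the ligand WNT6 fell from 3.81 to 1.14 TPM. In HT-29 the LRP5/6 antagonist DKK1 rose from 15.8 ± 2.30 to 106 ± 6.63 TPM (log2 fold change 2.53, SE 0.0681), and the receptor gene ROR1 fell from 20.1 to 8.43 TPM.

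Between resistant and sensitive HCT-116 under uracil 17 of 76 other pathway genes were called, all 17 lower, where 11.0% of all genes were called and 6.80% were lower. By role, 7 of 17 ligands and their export genes tested, 3 of 4 genes of the R-spondin axis, 4 of 12 other targets, 2 of 12 nuclear factors and 1 of 14 receptors were lower. They included TNFRSF19, WNT11 and WNT6, with log2 fold changes of -4.50, -2.82 and -2.81. In DLD-1 5 of 72 were higher and 1 was lower, where 5.70% of all genes were called. The higher ones included TLE2, a co-repressor that binds TCF factors, with a log2 fold change of 2.13, and PROM1 with 1.55, and the lower one was NOTUM. These lists were chosen with earlier results of these data known and are given as counts.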

How the data were processed

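Poly(A) RNA of 54 libraries was sequenced in pairs with strand kept. The authors trimmed the reads (Trimmomatic 0.36, per the submitters' processing notes), checked them with FastQC 0.11.8 and quantified Ensembl transcripts of GRCh38 with kallisto 0.44.0. They deposited estimated counts, not normalized, and TPM, corrected for length and depth, per transcript and summed per gene. Whole numbers made up 60.7% of gene-level values, and the rest were rounded for testing.

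Groups came from the cell line, sensitivity and treatment labels. Genes were tested with edgeR 4.0.16 (R 4.3.3) after filterByExpr and TMM scaling, in 1 fit per line over 18 libraries (12 residual degrees of freedom), and in 1 fit over 54 for comparisons between lines (36). Benjamini-Hochberg adjustment covered all genes of a fit. Both thresholds were an adjusted p no higher than 0.01 and an absolute log2 fold change no smaller than 1. The fit was tested on simulated data. Alternatives used DESeq2 1.42.0 and limma 3.58.1 (log2(TPM + 1)), other scalings, no filter, fewer groups, a replicate block and left-out libraries. The detection floor was 3 counts per library. No libraries were merged: the smallest chi-square per degree of freedom between replicates was 2.31. Always named were the 10 genes, and of the pathway lists up to 3 called genes per direction and comparison with a mean of at least 1 TPM. Other steps used Python 3.11.15, numpy 2.4.6, pandas 2.3.3 and matplotlib 3.10.9. The genes and lists were chosen with earlier results of these data known.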

Additional observations from a re-analysis of the deposited data

Results flagged for a closer look

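7 differences between groups were picked out because the test of the difference itself passed both thresholds (edgeR's quasi-likelihood test, Benjamini-Hochberg). In DLD-1 the 5-FU response of NKD1 was higher in resistant than in sensitive cells by 1.03 (SE 0.0901, adjusted p = 2.85e-08), and in HT-29 the response of MYC was higher in the libraries labelled resistant, which carry HCT-116 markers, by 1.37 (SE 0.0728, adjusted p = 5.87e-14). Among sensitive cells, the MYC response of HCT-116 exceeded that of DLD-1 by 1.14, and that of HT-29 minus HCT-116 was -1.84. In HT-29 minus DLD-1 the LGR5 response differed by -1.10, the ASCL2 response by -1.84 and the NKD1 response by 1.80, of which limma on log2(TPM + 1) put LGR5 (-0.95) and ASCL2 (-0.65) under the fold threshold. The NKD1 difference within DLD-1 lost its call in 5 of 20 alternatives. By limma on log2(TPM + 1) it was 0.47 and passed neither threshold (adjusted p = 0.0704, limma). All groups held 3 samples, so no outlier test was run on single libraries. The chi-square comparison of replicates given above is a description.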

How the results depend on the processing

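Of 379 counts of called members under alternatives, 360 stayed within 1.5 times the main count in 29 comparisons, and 19 moved in 7 of them. Of 738 values of single members, 702 kept their side of the thresholds, 14 lost the call, 22 gained it and 0 reversed. With library size alone, the count for 5-FU with irradiation in sensitive DLD-1 went from 2 to 1, that for the DLD-1 response difference from 1 to 0 and that for the HT-29 minus HCT-116 response difference from 1 to 2. This scaling put the all-gene median at 0.264 (log2) in labelled resistant against sensitive HT-29. With no filter, the HT-29 minus HCT-116 count became 2. With limma on log2(TPM + 1) the counts became 0 for 5-FU, 0 for 5-FU with irradiation and 0 for the response difference in DLD-1, 2 for the HT-29 response difference, 1 for HT-29 minus DLD-1 and 2 for HT-29 minus HCT-116, and the cause was not tested. Leaving out 1 library gave 1 to 2 calls for 5-FU in sensitive DLD-1, 0 to 1 for resistant against sensitive DLD-1, 0 to 1 for its response difference, 1 to 2 for the HT-29 response difference and 1 to 2 for HT-29 minus HCT-116, where whole replicate numbers were left out. Shares by estimated counts in place of TPM were 86.0%, 85.7%, 97.5%, 81.2%, 91.5% and 87.3% for the full ZNRF3 start in sensitive DLD-1, HCT-116, HT-29 and resistant DLD-1, HCT-116, labelled HT-29, and 93.4%, 94.5%, 94.3%, 93.9%, 93.4% and 92.2% for TCF7. Replicate numbers did not pair the libraries: correlations of same-numbered deviations ran from -0.087 to 0.103, and the replicate block moved 0 counts. Genes under the floor cannot be compared at this depth.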
